A study of Mus musculus with 221 samples.

Results

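The mitochondrial protein import translocases, that is the genes whose symbol starts with Tomm or Timm followed by a digit, were described in single early 2-cell mouse embryos. The rule found 26 of the 55291 genes in the count table, after pseudogenes marked -ps were left out. The embryos were made by in vitro fertilization of oocytes with a C57BL/6N nucleus and Staudach (ST) mitochondrial DNA, and both groups share this maternal background. Sperm came from C57BL/6N males on a high-fat diet (HFD; their number is given with the processing) or a low-fat diet (LFD, n = 99 embryos). The labels give the diet and an embryo number, but not the sire, the date or the sex of an embryo. Only a few males per diet were used, and each date had other males, so a difference between the diets cannot be told apart from a difference between their sires.

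Most mitochondrial proteins are encoded in the nucleus, made in the cytosol and imported. The translocase of the outer membrane (TOM) is the common entry gate. Behind it, the TIM23 complex takes proteins with a presequence into the matrix or the inner membrane, the TIM22 complex inserts carrier proteins into the inner membrane, and the small TIM chaperones escort hydrophobic precursors through the intermembrane space. The 2-cell embryo still holds mitochondria and much mRNA from the oocyte, and its own genome is being switched on.

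Of the 26 genes, 7 belong to TOM, 6 to TIM23, 2 to TIM22 and 7 to the small TIM chaperones. A further 3 carry a Tomm symbol outside the core complex (Tomm20l, Tomm34 and Tomm40l), and Tomm6os is an antisense transcript and no subunit. In the diet fit 23 genes passed the low-count filter, and Tomm6, Tomm20l and Tomm40l did not. Tomm6 cannot be read from this table, because 75.95% of its exon bases lie in Gm21981 on the same strand and reads that touch 2 genes were dropped. Tomm6os overlaps 19.4% of the exon bases of Tomm6 on the other strand. Smart-seq2 libraries do not mark strand, so reads of Tomm6os and Tomm6 cannot be told apart there.

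Total counts ran from 1937251 to 17246791 per embryo, with a median of 5706066. All 6 markers of the 2-cell stage and all 7 of the oocyte were detected. The summed level of 11 macrophage markers was 6.66 ± 1.51 log2 CPM (counts per 1000000; SD) in HFD and 6.28 ± 0.33 in LFD embryos, with ranges of 3.83 to 12.53 and 5.47 to 7.29. The median count was 0 for Adgre1, Ptprc and C1qa. The summed level of the 13 mitochondrially encoded mRNAs, called the mitochondrial mRNA level below, was 15.53 ± 0.47 in HFD and 15.17 ± 0.48 in LFD embryos. On this measure 4 embryos stood apart: HFD 28 at 17.30, HFD 42 at 17.20, LFD 26 at 16.65 and LFD 73 at 16.59, against 16.41 for the next. The last 3 of these 4 had fewer than 16000 genes with a count. Results that rest on these 4 embryos are given with and without them.

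Per length (TPM, counts per base of exon scaled to a sum of 1000000; median over embryos), levels within a complex were far apart. In TIM23, Timm23, a core membrane subunit, was at 381 TPM. Timm21, which links TIM23 to TOM, was at 59.9 and Timm17a, the other kind of core subunit, at 19.95. Its relative Timm17b was at 17.3, the presequence receptor Timm50 at 11.2 and the motor anchor Timm44 at 8.07. Timm23 thus made up 75.8% ± 4.49 (SD over embryos) of the summed TIM23 level.

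The small TIM chaperones were as uneven. Timm8b was at 655 TPM and made up 85.9% ± 4.67 of their sum. Timm8a2 followed at 51.4, Timm10 at 27.7, Timm8a1 at 8.06, Timm9 at 5.72, Timm13 at 4.57 and Timm10b at 1.67. In TIM22, the subunit Timm29 was at 38.2 TPM and Timm22, which gives the complex its name, at 3.65.

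In TOM the leading gene took a smaller share. Tomm22, the central receptor, was at 77.4 TPM and made up 38.5% ± 12.1 of the sum, with the presequence receptor Tomm20 at 43.1. Of the small subunits, Tomm5 was at 28.3 and Tomm7 at 20.1, and the channel Tomm40 was at 18.5. Tomm70a, the receptor for carrier precursors, was at 1.06. Outside the complex, Tomm34, a mostly cytosolic co-chaperone, was at 180.9 TPM.

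**Figure D1:**
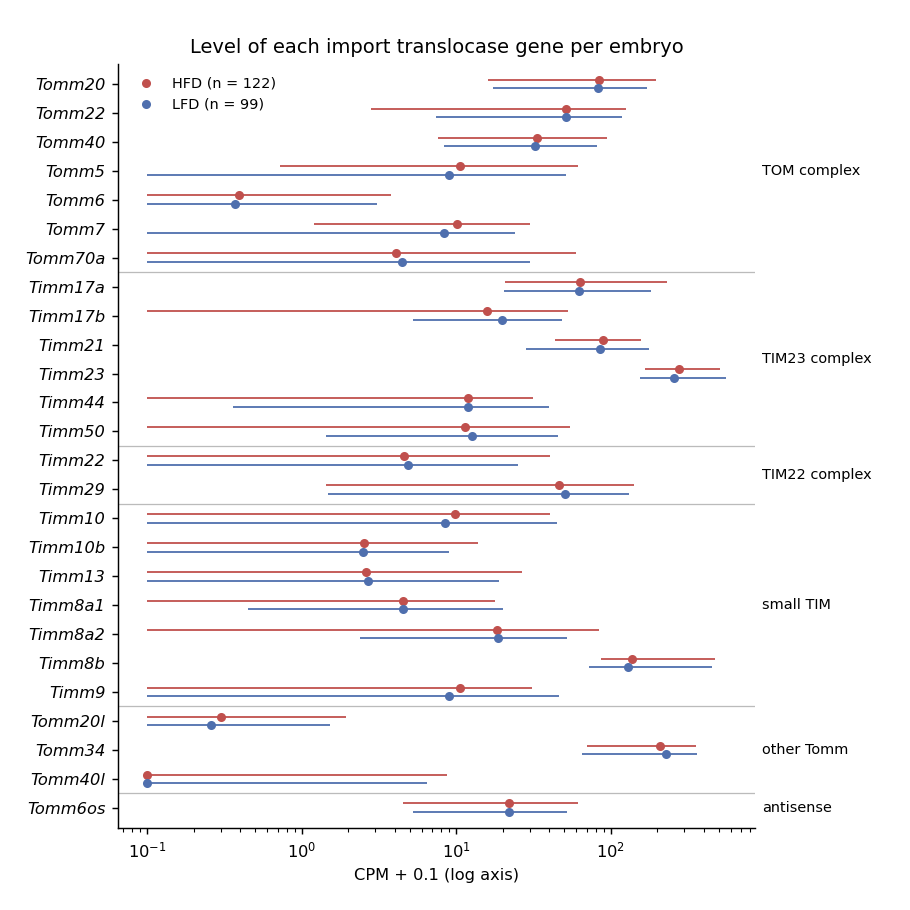
Level of the 26 genes (CPM with 0.1 added, log axis) by complex. Points are medians and lines run from the lowest to the highest of the HFD (red) and LFD (blue, n = 99) embryos. The diets overlapped in every gene, and Timm23, Timm8b and Tomm34 had the highest medians.

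To ask whether the diet of the sire moved these genes, HFD embryos were compared with LFD embryos. None of the 23 tested genes was called by edgeR's quasi-likelihood test at a false discovery rate (FDR) of 0.05, against 2.12% of all 14820 genes tested. At an unadjusted p under 0.05 there were 4 of 23, beside 1890 of the 14820, and the DESeq2 Wald test also called 0. The median log2 fold change was 0.03 over the 23 genes and 0.00 over all genes. The call of Timm23 depended on the settings, as described next.

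Timm23 was at 166.1 CPM in the lowest, 276 in the median and 507 in the highest HFD embryo, and at 153.98, 258 and 561 in LFD embryos. The ranges overlapped almost wholly, and 68.03% of the HFD embryos lay above the LFD median. Its log2 fold change was 0.12 (SE 0.04; 95% interval 0.04 to 0.21; edgeR adjusted p = 0.104). It was higher in HFD in 11 of the 11 ranges of 10 embryo numbers that hold both diets, by 0.01 to 0.31 on the log2 scale. Embryo numbers do not pair the diets, so this count is a description and no repeat of the comparison. HFD embryos numbered above 110 are not in these ranges. Timm23 passed the threshold in 8 of 19 alternative fits, among them the fit without the 4 embryos named above (adjusted p = 0.0252), and in 11 it did not. With the mitochondrial mRNA level as a covariate its log2 fold change was 0.05 (adjusted p = 0.823).

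In TOM, the small subunits Tomm7 and Tomm5 had the smallest p. Tomm7 ran from 1.10 over 9.96 to 30.02 CPM (lowest, median, highest) in HFD and from 0 over 8.23 to 23.8 in LFD embryos. Its log2 fold change was 0.28 (SE 0.11, edgeR adjusted p = 0.183). Tomm5 ran from 0.628 over 10.5 to 60.9 CPM in HFD and from 0 over 8.86 to 51.5 in LFD embryos, with a log2 fold change of 0.34 (SE 0.17, edgeR adjusted p = 0.376). Both groups overlapped, and neither difference passed the test. The fold change of Tomm5 moved with the settings, to 0.18 without HFD embryos 31 to 70, 0.07 with the mitochondrial mRNA level as a covariate and 0.67 in limma-voom. Tomm20, Tomm22, Tomm40 and Tomm70a had log2 fold changes from -0.14 to 0.08.

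In TIM23, Timm17b had the smallest p after Timm23. It ran from 0 over 15.8 to 53.2 CPM in HFD and from 5.12 over 19.8 to 48.5 in LFD embryos, with a log2 fold change of -0.20 (SE 0.10, edgeR adjusted p = 0.386). Timm17b and Timm8a1 lie on the X chromosome, and the sex of the embryos was not used. Timm17a, Timm21, Timm44 and Timm50 had log2 fold changes from -0.17 to 0.13 and were not called.

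Both TIM22 genes were near 0. Timm29 ran from 1.33 over 46.02 to 141.3 CPM in HFD and from 1.38 over 50.9 to 131.2 in LFD embryos (log2 fold change 0.03, SE 0.13). Timm22 ran from 0 over 4.46 to 40.4 CPM and from 0 over 4.78 to 25.2 (0.03, SE 0.20). Of the small TIM chaperones, Timm8b ran from 86.2 over 137.1 to 473 CPM in HFD and from 72.04 over 130.06 to 456 in LFD embryos (log2 fold change 0.12, SE 0.06, edgeR adjusted p = 0.439). Without HFD embryos 31 to 70 the log2 fold change of Timm8b was 0.0038. Timm10 ran from 0 over 9.79 to 40.2 CPM and from 0 over 8.35 to 44.8 (0.20, SE 0.18). The other 5 chaperones lay between -0.07 and 0.16, Tomm34 was at -0.08 and Tomm6os at 0.12, none of them called.

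**Figure D2:**
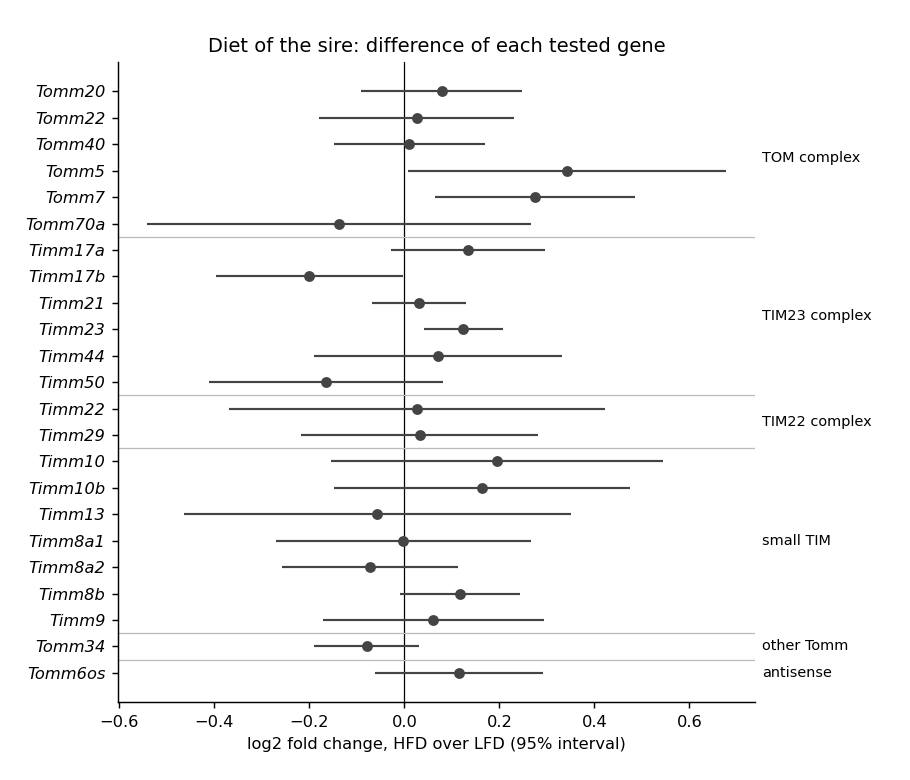
Log2 fold change (HFD over LFD) of the 23 tested genes with 95% intervals, by complex. No gene was called at an FDR of 0.05. The interval of Timm23 (0.04 to 0.21) is the narrowest. It does not reach 0, and neither do those of Tomm7, Tomm5 and Timm17b.

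Outer and inner membrane complexes were set against each other in each embryo as the log2 ratio of the summed TPM of TOM over that of TIM23 and TIM22 together. The ratio was -1.56 ± 0.54 (SD) in HFD and -1.56 ± 0.49 in LFD embryos, ranging from -2.997 to -0.52 and from -3.53 to -0.40, so the diets did not separate. Timm23 made up 69.6% ± 5.64 of the inner membrane sum. Without it the mean ratio was above 0, at 0.23 ± 0.41 in HFD and 0.13 ± 0.39 in LFD embryos. When each gene weighed the same, the mean log2 level of TOM minus that of TIM23 and TIM22 was -0.85 ± 0.46 in HFD and -1.04 ± 0.43 in LFD embryos. This mean counts Tomm6, which cannot be read from this table and stood at 0.63 TPM, the lowest of TOM. Tomm6 thus pulls the TOM side down, and the value without it was not computed. In the summed levels Tomm6 weighed little, at 0.45% of TOM. All these differences between diets were smaller than 1 SD of single embryos. That SD describes how far single embryos overlap, not how precisely a difference of means is known. No test was made on these sums, since their genes were chosen with results known.

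**Figure D3:**
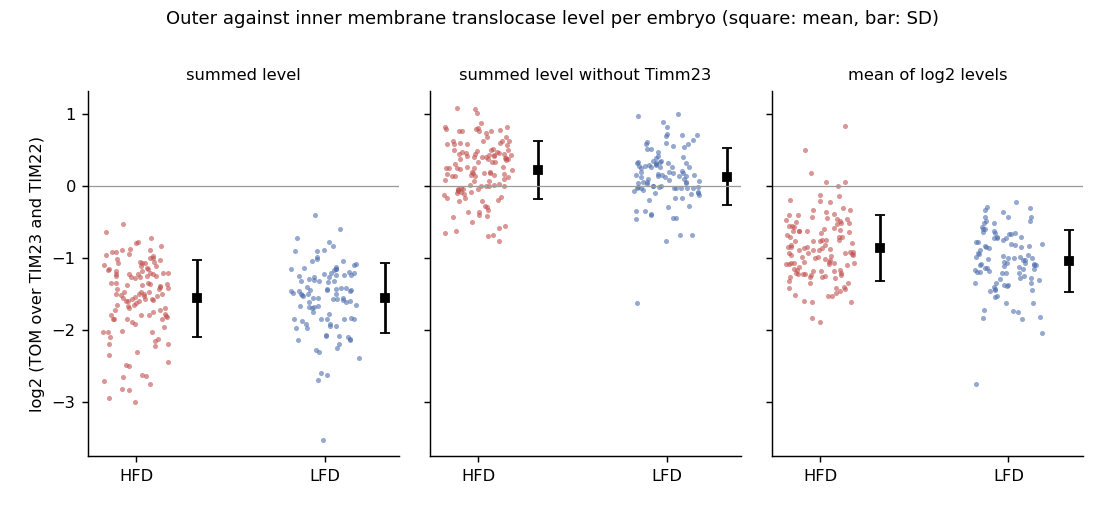
Log2 ratio of TOM over TIM23 and TIM22 in each embryo (points; squares with bars are mean and SD) for the summed level, the summed level without Timm23, and the mean of log2 levels. HFD and LFD embryos overlap in each, and leaving out Timm23 moves the mean ratio from -1.56 to above 0.

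The next question was whether import genes vary with the mitochondrial mRNA level between embryos. Slopes were fitted over all embryos with diet as a covariate and are log2 changes per log2 unit of that level. With all embryos 13 of the 23 tested genes were called, 12 of them rising and 1 falling with the level, where 34.7% of all 14805 genes tested were called (18.1% positive, 16.6% negative). Without the 4 embryos of highest level, an alternative added after the values were seen, 5 of 23 (21.7%) were called, all positive, against 31.2% of 14859 genes. Only 4 genes were called both times: Tomm22, Tomm5, Timm8b and Tomm6os. The other 9 lost their call without those 4 embryos. Another fit left out all embryos with fewer than 16000 genes with a count, among them 3 of the 4. It still called Timm10, Timm17a, Timm17b, Timm23, Timm8a2, Tomm34 and Tomm7, but not Timm13 and Tomm70a. Which of the 4 embryos these calls depend on was not tested.

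Tomm5 had the largest slope, 0.91 (SE 0.17, edgeR adjusted p = 1.92e-06), and 0.93 (SE 0.19, edgeR adjusted p = 5.83e-05) without the 4 embryos. That is 1.87-fold more Tomm5 per doubling of the mitochondrial mRNA level. Tomm22 kept its slope as well, at 0.57 (SE 0.10) and 0.57 (SE 0.12). In HFD embryos the level went with the number of genes with a count (Spearman rho -0.34) and the 2-cell over maternal marker ratio (0.39). In LFD embryos these values were 0.17 and 0.01. Tomm22 had a rho of 0.45 with that ratio and 0.33 with the level in HFD embryos, and 0.30 and 0.33 in LFD embryos. With either measure as a covariate the slope of Tomm22 was still called. Timm8b had the smallest p, with a slope of 0.47 (SE 0.05, edgeR adjusted p = 8.02e-16), but without the 4 embryos the slope was 0.21 (SE 0.05, edgeR adjusted p = 0.000776). Those 4 embryos hold the highest levels of Timm8b, as the plot of single embryos shows. Tomm6os had slopes of 0.54 and 0.48. Tomm5, Tomm22, Timm8b and Tomm6os were also called when each diet was fitted by itself. There 28.4% (HFD) and 25.3% (LFD) of the genes tested were called. Those fits held the 4 embryos, 2 in each diet, and were not repeated without them.

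The promoters of the 3 subunits with these slopes are shown because the genes share a relation to the same level. Each line is the 120 bases before the start site (RefSeq, build GRCm38.p6, 5′ to 3′ on the gene's strand). The letters CCGGAAG, a form of the site bound by ETS factors, are called the core here. They are in capitals where they occur on either strand (CTTCCGG on the other).
Timm8b, chr9:50603781-50603900, + strand: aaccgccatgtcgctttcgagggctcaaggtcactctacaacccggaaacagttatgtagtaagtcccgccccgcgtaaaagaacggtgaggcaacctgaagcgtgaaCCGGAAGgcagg
Tomm22, chr15:79670748-79670867, + strand: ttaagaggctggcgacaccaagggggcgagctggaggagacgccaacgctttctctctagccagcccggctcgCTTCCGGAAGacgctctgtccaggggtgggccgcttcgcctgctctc
Tomm5, chr4:45108114-45108233, - strand: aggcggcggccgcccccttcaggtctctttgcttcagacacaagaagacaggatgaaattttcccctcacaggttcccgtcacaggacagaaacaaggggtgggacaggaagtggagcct
In Tomm22 the core stands on both strands in overlapping positions, and in Tomm5 these letters do not occur in the stretch. The shorter letters ggaag do occur in the Tomm5 stretch, and other forms of the site were not searched for. The same stretch was read in only 2 genes not shown, and both held the core. These were Tomm34, whose slope was negative, and Timm23, whose slope call was lost without the 4 embryos. Over the 250 bases before the start, 8 of the 23 genes found in the promoter table held the core (34.8%), against 6.91% of all 32851 promoters. For TGCGCA, the core bound by NRF1, the counts were 3 of 23 (13.04%) and 6.43%, and on either strand for AAGATGG, the core bound by YY1, 1 of 23 (4.35%) and 4.49%. Each of the 23 genes was counted by 1 promoter, while the share over all promoters counts every entry, with no choice by expression. These are matches of letters, and binding was not measured.

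**Figure D4:**
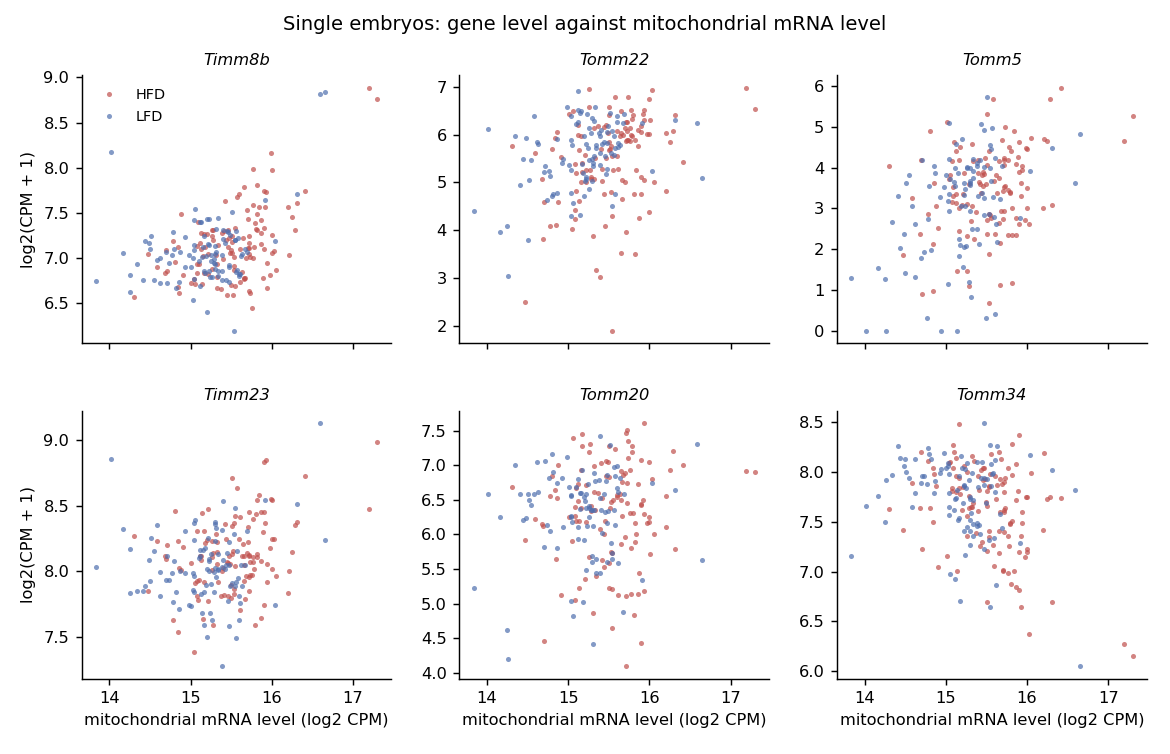
Log2(CPM + 1) of 6 genes against the mitochondrial mRNA level (log2 CPM) in single embryos (HFD red, LFD blue). The 4 embryos farthest to the right hold the highest Timm8b values, and 3 of them the lowest Tomm34 values, while the slopes of Tomm5 and Tomm22 are much the same without them (0.93 and 0.57).

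The remaining called genes lost their call without the 4 embryos. Timm23 went from 0.19 (SE 0.04) to 0.09 (SE 0.04), Timm17a from 0.32 to 0.09, Timm17b from 0.25 to 0.11 and Timm8a2 from 0.25 to -0.02. Timm10 went from 0.62 (SE 0.18), the second largest slope, to 0.51 (SE 0.22, edgeR adjusted p = 0.0588). Tomm7 went from 0.36 to 0.29, Tomm70a from 0.57 to 0.52 and Timm13 from 0.52 to 0.37. The one negative call, Tomm34, went from -0.22 (SE 0.06) to -0.14 (SE 0.06, edgeR adjusted p = 0.0676). Timm10b (-0.17) and Timm9 (-0.07) had the next lowest slopes and were not called. Tomm20, Tomm40, Timm8a1, Timm21, Timm22, Timm44 and Timm50 were called in neither fit, and Timm29 was called only without the 4 embryos (0.38, SE 0.15).

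By complex, with all embryos 4 of 6 tested TOM genes, 3 of 6 TIM23 genes, 0 of 2 TIM22 genes and 4 of 7 small TIM genes had a called slope, where 34.7% of all genes did. Without the 4 embryos the counts were 2, 0, 1 and 1, where 31.2% of all genes were called. The median slope was 0.46 in TOM and 0.11 in TIM23, and 0.41 and 0.04 without the 4 embryos, beside 0.02 over all genes in both fits. The difference between the complexes was not tested.

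**Figure D5:**
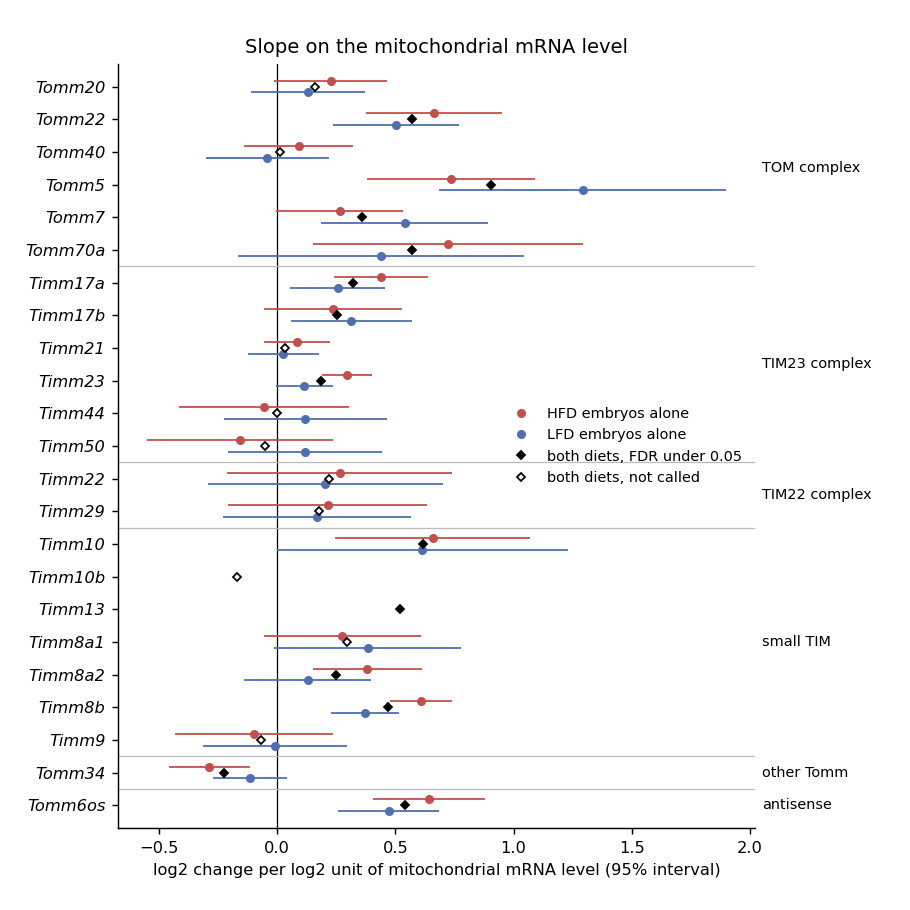
Slope of each gene on the mitochondrial mRNA level, in log2 change per log2 unit, with 95% intervals in HFD (red) and LFD (blue) embryos alone and the slope over both diets as a diamond (filled where called). Tomm5, Tomm22, Timm8b and Tomm6os lie to the right of 0 in both diets, with the 4 embryos of highest level included. Timm10b and Timm13 did not pass the filter within single diets.

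Whether the slopes differ between the diets was tested as an interaction. None of the 23 genes was called by edgeR, against 0.182% of all genes, and 2 of 23 had an unadjusted p under 0.05, beside 1448 of 14805. These were Timm8b, with a difference of slopes (HFD minus LFD) of 0.22 (95% interval 0.03 to 0.42, edgeR adjusted p = 0.421), and Timm23, with 0.17 (0.01 to 0.33, edgeR adjusted p = 0.457). For Tomm5 the difference was -0.57 with an interval from -1.26 to 0.12.

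Partners of the translocases were taken from a list of 26 genes for the import motor, sorting, presequence processing and folding. In the diet fit 0 of 23 tested were called, against 2.12% of all genes. The smallest p were those of Mipep, a peptidase that trims imported proteins (log2 fold change -0.21, SE 0.09, edgeR adjusted p = 0.3003), and Agk, a lipid kinase that is also a TIM22 subunit (-0.12, SE 0.07, edgeR adjusted p = 0.483). On the mitochondrial mRNA level 9 of 23 (39.1%, against 34.7% of all genes) were called with all embryos, 5 positive and 4 negative, and 3 of 24 (12.5%, against 31.2%), all negative, without the 4 embryos. Agk fell with the level in both fits (-0.45, SE 0.07, and -0.32, SE 0.07), as did Mipep (-0.30, SE 0.09, and -0.50, SE 0.10). Romo1, a small TIM23 partner, had a slope of 0.33 (SE 0.05) with all embryos and 0.09 (SE 0.06) without the 4. The chaperone Hspa9, the import motor, had slopes of -0.20 (SE 0.04) and -0.10 (SE 0.04), the second of which was not called.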

How the data were processed

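Smart-seq2 libraries of 122 HFD and 99 LFD embryos were analysed from raw counts per gene as the authors deposited them. Per the submitters' processing notes, reads were trimmed with Trim Galore 0.6.6 and aligned with STAR 2.7.10a to GRCm38. Per the file headers, featureCounts 2.0.3 counted each read of a pair singly over Ensembl 102 exons with strand setting 2, and reads of several genes or places were left out. Of the counts above 0, 65.8% were even.

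Diet, slope and interaction were fitted over all genes with edgeR 4.0.16 (quasi-likelihood F test with the package's defaults, TMM, filterByExpr by diet, library sizes over the tested genes, Benjamini-Hochberg adjustment) in R 4.3.3. Mitochondrially encoded genes were left out of the slope fits. Levels are log2 of summed CPM with 0.5 added. Code was tested on simulated data. Embryos were the replicates; labels do not tie them to sires, so p-values take no account of sires.

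Every gene of the rule is named. Full values are given for called genes, the 2 smallest p per complex, and the 3 largest and 3 smallest slopes; for slopes, lowest, median and highest levels are those given with the diet results or in the plots. The genes, lists and tests were chosen with earlier results of these data known. DESeq2 1.42.0 and limma 3.58.1 served as alternatives. After the first diet fit was seen, 6 other edgeR settings were tried; the first stayed the main one whichever genes the others called.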

Additional observations from a re-analysis of the deposited data

How the results depend on the processing

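No gene was called for diet in the main fit. One gene, Timm23, was called with no low-count filter (1), limma-voom without number blocks (1), the number of genes detected as covariate (1), and without the 4 embryos of highest mitochondrial mRNA level (1); 2 genes, Timm23 and Timm8b, without embryos with under 16000 genes. Of the 6 edgeR settings tried later, the newer quasi-likelihood method called 1 with library sizes over all genes and 1 with TMM before filtering, both Timm23, and the other 4 called 0. Over all genes these settings called 318 to 719 where the main fit called 314. Timm23 was past the threshold in 8 of 19 alternatives, with log2 fold changes from 0.05 to 0.17 and adjusted p from 0.00912 to 0.823; without HFD embryos 31 to 70 its adjusted p was 0.431, and with the macrophage level as covariate 0.210. The reasons for these changes were not tested.

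Embryo numbers are shared by the diets, but same-numbered embryos did not deviate together (20 of 94 pairs correlated above 0.1, median 0.0115), so the numbers do not pair them. With the number as a replicate block, 1 of 23 genes (Timm23) was called for diet, against 3.44% of all genes. In that setting 6 of 23 had a called slope, where 14.9% of all genes did. Slopes were called for 5 of 21 genes (23.8%, against 25.3% of all genes) in LFD embryos alone and for 5 of 23 (21.7%, against 31.2%) without the 4 embryos, both shares lower. The other slope alternatives called 9 to 14, where 20.3% to 41.4% of all genes were called.

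Of the 23 genes, 16 had a positive diet value, and 12 in limma-voom. Among the genes given with full values, these signs changed. For diet, Timm29 was -0.083 in limma-voom with and -0.076 without number blocks, -0.0358 with the 2-cell over maternal marker ratio, -0.032 with the mitochondrial mRNA level and -0.0357 without embryos with few genes. Timm22 was -0.31 with the block, -0.260 and -0.261 in limma-voom, -0.0056 with genes detected, -0.0559 with the mitochondrial mRNA level, -0.0555 without HFD embryos 31 to 70 and -0.034 without embryos with few genes. With the mitochondrial mRNA level Timm8b was -0.070 and Timm10 -0.039. The slope of Timm9 was 0.0044 without HFD embryos 31 to 70 and that of Timm8a2 -0.018 without the 4 embryos, where the uncalled slopes of Timm21 (-0.04) and Timm44 (-0.21) also turned negative.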

Other observations

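Levels of the import genes were also compared with each other over all embryos, after the mean of each diet was taken off, as a description: the values share library, depth and scaling. Over 253 pairs of genes with a mean of at least 10 counts the median Spearman rho was 0.11. It was 0.12 for the 52 pairs within a group and 0.10 for the pairs between groups, so these pooled medians hardly differed. The groups were not alike, however. Pairs within TOM were all positive, from 0.06 (Tomm22 with Tomm70a) to 0.44 (Tomm7 with Tomm20). Pairs within TIM23 ran from -0.07 to 0.27 and those within the small TIM chaperones from -0.11 to 0.16. The closest pairs joined genes of different groups: Tomm22 with the antisense transcript Tomm6os (0.68), the TIM23 subunit Timm17a with the TOM receptor Tomm20 (0.66), and Tomm22 with the TIM22 subunit Timm29 (0.55). The most opposed were Tomm34 with Tomm22 (-0.43) and Tomm34 with Timm23 (-0.42).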
